A study of Mus musculus with 3 samples.

Results

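The nuclear-encoded subunits of the mitochondrial respiratory chain were examined in single-cell RNA-seq data of peripheral blood (PB) leukocytes. Members were the genes whose symbol starts with Nduf followed by a, b, c, s or v and a number, the genes Sdha to Sdhd, and the genes whose symbol starts with Uqcr, with Cox4 to Cox8 followed by a, b or c, or with Atp5. The rule took 83 of the 32285 genes in the count tables. Of these, 36 belong to complex I, 4 to complex II, 8 to complex III, 18 to complex IV and 17 to complex V (ATP synthase), with Ndufa4 and Ndufa4l2 placed in complex IV, where the protein of Ndufa4 is now assigned. By symbol alone the rule leaves out subunits such as Cox4i1, Cyc1 and Ndufab1, which were followed in a separate list. The annotation lists 82 of them as protein coding and Ndufb1-ps as a bidirectional promoter lncRNA. Expression was counted in UMIs (unique molecular identifiers, each marking 1 captured RNA molecule).

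The respiratory chain passes electrons from NADH through complex I, or from succinate through complex II, to complex III and on to oxygen at complex IV, and the proton gradient built on the way drives ATP synthesis at complex V. Most subunits are encoded in the nucleus and imported, whereas a small core of complexes I, III, IV and V is encoded by mitochondrial DNA, so each of these complexes needs both genomes. Circulating neutrophils are known for few mitochondria and a reliance on glycolysis, mature red cells lose their mitochondria, and proliferating blasts are known for high respiratory gene expression.

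There were 3 libraries, 1 per condition, all of wild-type mice of the Balb/C background. PB of naive mice was compared with PB of mice engrafted with BBC2, a cell line of stem cell leukemia/lymphoma (SCLL) driven by the BCR-FGFR1 chimeric kinase that gives a pro-B-like leukemia, taken at day 11 (D11) and day 14 (D14). BBC2 is 1 line from 1 transduction model, red cells had been lysed and dead cells depleted in all 3 samples, and the number of mice in a library is not given in the sources used here. By the study's methods the engrafted mice were young adult females, and the age of the naive mice is not stated separately. Each condition being 1 library, no difference was tested, and the condition cannot be told apart from the library. Intervals given below are exact 95% intervals for counting error only (Clopper-Pearson for a share, Poisson for CPM, conditional binomial for a ratio).

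Cells that had 200 or more genes and no more than 10% of UMIs from mitochondrial genes numbered 3811 in naive, 4567 in D11 and 4414 in D14, and the 3 libraries held 26422110, 36950092 and 51192755 UMIs in them. Each cell was put in a class by marker genes and named with the ending "-like" (cMono, classical monocytes; ncMono, non-classical monocytes), leaving 185, 252 and 301 cells with markers of several classes and 221, 564 and 832 cells with too few markers out of all classes. Between libraries, 3 to 5 of the kept cell barcodes were shared, at most 0.113% of the smaller library. Every marker of its own list had UMIs in each class described here, and only the 3 naive cells that passed the pro-B leukemia-like gate lacked one, Dntt. Summed over its own 10 markers, the neutrophil-like class stood at 10188 CPM (UMIs of a gene scaled to a class total of 1000000 UMIs) in naive, 19324 in D11 and 35224 in D14, while in the monocyte-like and lymphocyte-like classes the sum of their own markers stayed between 4074 and 11729 CPM. Hemoglobin genes took 2.42%, 37.4% and 11.8% of the UMIs of the kept cells.

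The subunits took a share of UMIs that differed more between cell classes than between conditions. In naive PB they were 0.469% of the UMIs of neutrophil-like cells (interval 0.462% to 0.475%), 0.668% of B-like, 0.763% of ncMono-like, 0.947% of T-like, 1.04% of NK-like and 1.38% of cMono-like cells (1.36% to 1.40%). Pro-B leukemia-like cells stood above all of these, with 2.41% at D11 (2.39% to 2.43%) and 2.22% at D14 (2.21% to 2.22%). These neighbours in the order had intervals that did not overlap. Erythroid-like cells were at the low end with 0.143% at D11 and 0.0883% at D14, where hemoglobin genes alone took 91.3% and 89.1% of their UMIs. With hemoglobin genes left out of the total, they had 1.65% at D11 and 0.807% at D14. On that total, naive neutrophil-like cells had 0.475% and naive cMono-like cells 1.39%, so the low place held only with hemoglobin counted. In subunit UMIs per cell, a neutrophil-like cell in naive had a mean of 17.8, a cMono-like cell 175.0 and a pro-B leukemia-like cell at D11 737.9, and the median total of these cells was 3542, 12569 and 29073 UMIs.

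**Figure D1:**
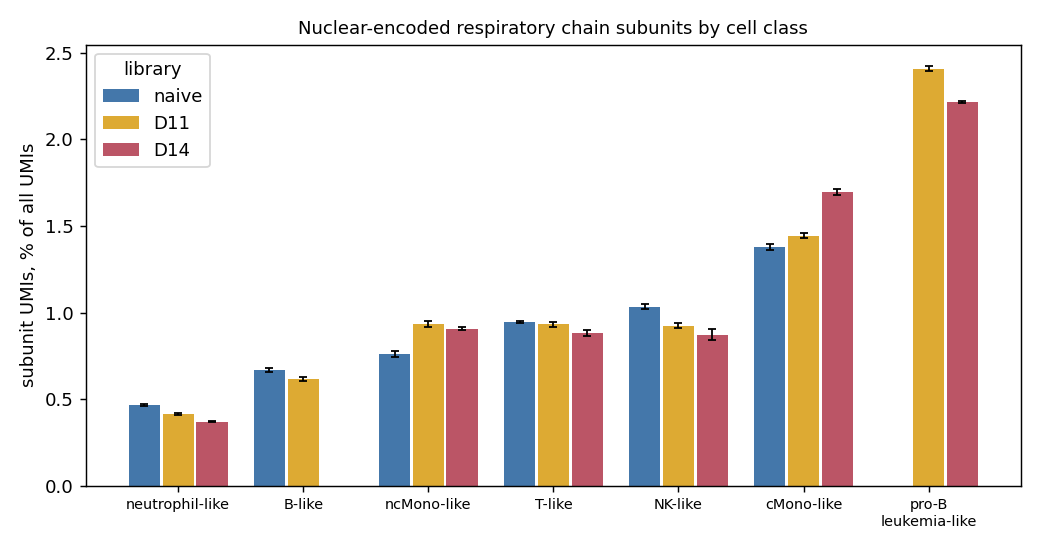
Bars give the UMIs of the 83 nuclear-encoded subunits as a percentage of all UMIs of a cell class in each library (naive, D11, D14), with exact 95% intervals for counting error, for 7 leukocyte and leukemia classes where they held at least 50 cells. Erythroid-like cells are not drawn. Pro-B leukemia-like cells (2.41% and 2.22%) stand above the other classes drawn, and neutrophil-like cells (0.469%, 0.414% and 0.371%) below them.

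The makeup by complex was alike across leukocyte classes. In naive PB, complex I gave 30.4% to 33.4% of the subunit UMIs of a class, complex V 30.5% to 33.2%, complex IV 23.1% to 26.8%, complex III 8.43% to 10.5% and complex II 2.10% to 2.74%. Pro-B leukemia-like cells had less of their subunit UMIs in complex I (27.3% at D11) and more in complex IV (27.6%) and complex V (33.8%). Since 3′ tags count molecules, CPM of different genes were compared without division by length. The highest member of complex I in naive was Ndufb9 in neutrophil-like cells (134.1 CPM), Ndufb1-ps in cMono-like cells (363.5 CPM) and Ndufs4, an accessory subunit of the NADH side, in ncMono-like, B-like, T-like and NK-like cells (142.4, 163.7, 213.1 and 229.4 CPM). Uqcrh, the hinge protein of complex III, led its complex in all of these classes, from 110.5 CPM in neutrophil-like to 494.9 CPM in cMono-like cells. In complex IV the lead was held by Cox8a, a small membrane subunit, in all of them but T-like cells, where it was Cox7a2l with 323.2 CPM. In complex V it was Atp5l or Atp5e. In pro-B leukemia-like cells at D11 the lead passed to Cox5a with 882.3 CPM in complex IV and to Atp5b, the catalytic beta subunit of the ATP synthase, with 940.4 CPM in complex V.

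Several members are expressed at or near 0 in blood. Cox8b, Cox8c and Ndufa4l2 had no UMI in any library and Cox7b2 had 1, found in the D14 pro-B leukemia-like cells, so that 3 of the 83 members were not detected. Together with Cox6a2, 5 members had fewer than 100 UMIs over the 3 libraries.

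Promoters of the members were read for short sequence motifs of factors known as regulators of respiratory genes. A promoter window (250 bases before to 50 after the annotated start, RefSeq, GRCm38.p6) was matched for 67 of the 83 members and for 27025 genes in all. The NRF1 letters, GCGC then AT then GCGC, which read the same on both strands, were in the window of 5 of the 67 members, 7.46% against 1.07% of all genes. The ETS core of the GABP site, CCGGAAG on either strand, was in 17 members (25.4% against 9.93%), and the YY1 letters AAGATGGC on either strand were in 9 members (13.4% against 3.19%). A gene counted when any of its windows held the letters. For 4 of the 5 members with the NRF1 letters, the longest of the 3 motifs, 60 bases around the match are shown. The motif is in capitals, and each stretch lies before the RefSeq start of its window. In GENCODE vM21 the Atp5g2 gene spans 102662864 to 102672352, so its stretch lies inside that gene. The Atp5k gene, on the minus strand, begins at 108434448, within the stretch shown. A match of letters is a description of the window and not a bound site. The set of all genes was not matched to the members for expression or base content.

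Ndufa11 (GRCm38.p6, chr17:56717677-56717736, plus strand, motif from -60 to -51 of the start): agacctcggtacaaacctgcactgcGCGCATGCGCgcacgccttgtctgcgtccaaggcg
Cox6a1 (chr5:115349086-115349145, minus strand, motif from -162 to -153): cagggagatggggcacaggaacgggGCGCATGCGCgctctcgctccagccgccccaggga
Atp5g2 (chr15:102671055-102671114, minus strand, motif from -42 to -33): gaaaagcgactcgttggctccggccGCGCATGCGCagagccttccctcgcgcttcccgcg
Atp5k (chr5:108434415-108434474, minus strand, motif from -50 to -41): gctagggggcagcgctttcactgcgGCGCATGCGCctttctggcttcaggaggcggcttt

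The levels of these 4 members did not go together across classes. In naive neutrophil-like against B-like cells, Atp5g2, which encodes the c subunit of the ATP synthase rotor, had 17.9 against 171.5 CPM and Ndufa11 of complex I 5.53 against 52.4 CPM, whereas Atp5k of complex V had 44.7 against 63.0 CPM and Cox6a1 of complex IV 105.4 against 76.1 CPM. In pro-B leukemia-like against B-like cells of D11, all 4 were higher, as were nearly all members tested and 54.0% of all genes. The values were 739.1 against 186.9 CPM for Atp5g2, 151.7 against 52.3 CPM for Ndufa11, 257.5 against 34.6 CPM for Atp5k and 482.9 against 89.5 CPM for Cox6a1. The other member with the NRF1 letters, Uqcrc1, is not given here.

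The leukemia cells were compared with B-like cells of the same D11 library, since only 38 B-like cells were left at D14 and a class of fewer than 50 cells was not compared. There were 104 pro-B leukemia-like and 245 B-like cells, with median totals of 29073 and 5569 UMIs. The subunit share was 2.41% against 0.617%, a ratio of 3.91 (3.82 to 3.99). By complex the ratio was 3.32 for I, 2.58 for II, 3.60 for III, 4.49 for IV and 4.30 for V. Of 74 members with a mean of at least 50 CPM over both classes, 70 were at least 1.5-fold higher and 0 at least 1.5-fold lower in the leukemia cells. Among all 3796 genes past that minimum, 38.8% were higher and 30.4% lower by that fold. Any excess over B-like cells was found for 73 of the 74 members and 54.0% of all genes. The median log2 ratio was 2.01 over the members tested and 0.14 over all genes tested.

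The largest differences lay in small subunits of complexes III, IV and V. Uqcr11, a small subunit of complex III, stood at 447.4 CPM in the leukemia cells and 44.4 CPM in B-like cells, a ratio of 10.1 (7.89 to 13.04). Cox7b of complex IV had 794.1 against 82.4 CPM (9.64, 8.06 to 11.6). Atp5j2, a membrane subunit of the ATP synthase, had 698.0 against 81.7 CPM (8.54, 7.13 to 10.3). Cox5a and Ndufc1 followed with ratios of 8.44 and 7.93. Of the tested members, 1 stood lower in the leukemia cells, Cox7a2l, with 165.5 against 232.0 CPM (ratio 0.713, 0.622 to 0.818).

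The nuclear-encoded and the mitochondria-encoded subunits did not go together in this comparison. The 13 mitochondria-encoded subunits took 3.02% of UMIs in the leukemia cells and 3.70% in B-like cells, a ratio of 0.815 (0.806 to 0.823), so that there were 1.25 of their UMIs per nuclear-encoded subunit UMI in the leukemia cells and 6.0 in B-like cells. Other nuclear-encoded groups are given with their share ratio and their count past 1.5-fold higher, beside the 38.8% of all genes that were higher by that fold. Genes of mitochondrial ribosomal proteins had a ratio of 3.26 (36 of 36 tested), citrate cycle enzymes 2.37 (10 of 12), chain components outside the rule such as Cox4i1, Cyc1 and Cycs 3.13 (7 of 7), and assembly factors of the complexes 1.71 (4 of 6, with 1 lower). Glycolytic enzymes had a ratio of 4.09 (7 of 9), and cytosolic ribosomal proteins 1.37 (33 of 79, with 1 lower, a count near that background). Biogenesis regulators such as Nrf1 and Tfam had a ratio of 1.08 (0.988 to 1.19).

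From D11 to D14 the share in the 745 leukemia cells of D14 was slightly lower, 2.22% against 2.41%, a ratio of 0.920 (0.913 to 0.927). None of 75 tested members passed 1.5-fold in either direction, against 4.71% of all genes higher and 2.18% lower. Of these 75 members, 16 lay above and 59 at or below a ratio of 1, and 46.9% of all genes lay above. The lowest was Atp5g2, with 546 CPM at D14 and 739 CPM at D11 (0.739, 0.707 to 0.772), followed by Uqcrfs1, the Rieske iron-sulfur protein of complex III (0.752), and Ndufa8 (0.755). The highest were Atp5md (1.27) and Ndufa1 (1.26). Mitochondria-encoded subunits had a ratio of 1.19 (1.19 to 1.20) between the same cells. At D11, 91 leukemia cells passed the gate of at least 3 markers of cycling cells and 13 did not, with subunit shares of 2.42% and 1.84%. Their median totals were 34735 and 4223 UMIs, and the medians of their per-cell shares were 2.41% and 0.671%. The 13 cells were too few for a comparison. At D14, 527 passed the gate and 218 did not, and the part of this mix in the ratio of D14 over D11 was not tested. Median totals of these D14 cells were 35342 and 24011 UMIs, and the part of depth in their comparison was not tested. The subunit share was 2.28% in the cycling and 1.98% in the other cells (ratio 1.15, 1.15 to 1.16). Of the 74 tested members, 65 were above 1 in the cycling cells (50.8% of all genes) and 1 passed 1.5-fold (Ndufa5, 1.69, 1.51 to 1.90), against 5.07% of all genes higher. The lowest member was again Cox7a2l (0.804, 0.748 to 0.865).

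In monocyte-like cells of leukemic mice the subunit share was above that of naive mice. In cMono-like cells it was 1.38% in naive, 1.44% in D11 and 1.70% in D14. The ratio to naive was 1.05 (1.03 to 1.06) at D11, and at D14 it was 1.23 (1.21 to 1.25). At D14, 15 of 73 tested members were at least 1.5-fold higher and 0 lower, against 10.6% of all genes higher and 9.37% lower. The median log2 ratio was 0.33 over the tested members and 0.02 over all genes tested, and 64 of the 73 lay above a ratio of 1, as did 52.2% of all genes. By complex, V had the highest ratio (1.31, 1.28 to 1.35) and I and III the lowest (both 1.17).

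Genes of the ATP synthase led in cMono-like cells. Atp5a1, the alpha subunit of its catalytic head, had 229.1 CPM in naive, 342.3 in D11 and 484.5 in D14 (D14 over naive 2.11, 1.88 to 2.39). Atp5b, the beta subunit, had 231.6, 308.6 and 424.9 CPM (1.83, 1.63 to 2.08), and Atp5g3, a gene of the c subunit, 87.4, 117.0 and 174.3 CPM (1.99, 1.64 to 2.44). D11 lay between naive and D14 in these genes. Outside complex V, Cox5a had 179.0, 243.6 and 315.5 CPM (1.76, 1.53 to 2.03) and Ndufa4 225.5, 296.5 and 389.9 CPM (1.73, 1.53 to 1.96). The members farthest below naive at D14 were Ndufb1-ps (363.5, 201.3 and 251.1 CPM) and Ndufa3 (155.8, 95.8 and 122.4 CPM), for which D11 was the lowest library. At D11 itself 0 of 71 members were past 1.5-fold higher and 3 lower, against 2.58% and 3.79% of all genes, and 50 of the 71 lay above a ratio of 1, beside 48.1% of all genes. Between D11 and D14, 67 of 74 members were above 1 at D14 (54.1% of all genes), with 1 past 1.5-fold higher and 0 lower (4.33% and 4.68%).

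Other metabolic genes of cMono-like cells are given beside the 10.6% of all genes past 1.5-fold higher at D14. Glycolytic enzymes had a D14 over naive ratio of 1.78 (1.71 to 1.86), with 8 of 11 tested past 1.5-fold higher and 1 lower, and mitochondria-encoded subunits 1.52 (1.51 to 1.54), with 4 of 12 higher. Citrate cycle enzymes had 1.31 (1.22 to 1.41) and mitochondrial ribosomal proteins 1.16 (1.12 to 1.20), while cytosolic ribosomal proteins were level at 1.0 (0.995 to 1.01). The class held 129, 230 and 99 cells with median totals of 12569, 13541 and 20394 UMIs. The 10 neutrophil markers in it summed to 121.0, 131.4 and 259.3 CPM and the 6 progenitor markers to 21.4, 89.7 and 167.6 CPM. The part of these in the result was not tested, nor was that of RNA from pro-B leukemia-like cells.

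In ncMono-like cells the share was 0.763% in naive, 0.934% in D11 and 0.908% in D14, which put the ratio to naive at 1.22 for D11 (1.19 to 1.26) and 1.19 for D14 (1.16 to 1.22). At D11, 15 of 63 tested members were past 1.5-fold higher and 2 lower, against 6.44% and 7.27% of all genes. At D14, 9 of 62 were higher and 0 lower, against 8.61% and 7.04%. Above a ratio of 1 lay 45 of the 63 and 48 of the 62, beside 43.6% and 50.2% of all genes. Between D11 and D14, 26 of 66 members were above 1 at D14 (56.7% of all genes) and 0 passed 1.5-fold either way (4.6% higher and 2.4% lower). The leading genes were mostly others than in cMono-like cells. Uqcrh had 166.8, 330.4 and 336.4 CPM in naive, D11 and D14 (D14 over naive 2.02, 1.71 to 2.39), and Cox7a2l had 161.5, 322.0 and 318.9 CPM (1.97, 1.67 to 2.34). Ndufa6 of complex I had 113.7, 181.0 and 207.9 CPM (1.83). In all of these, both leukemic libraries lay above naive. In cMono-like cells at D14 the same genes had ratios of 0.914 for Uqcrh, 0.887 for Cox7a2l and 0.846 for Ndufa6.

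Atp5a1 and Cox5a were among the leading genes of both monocyte-like classes at D14. In ncMono-like cells their ratios were 1.74 and 1.71. Sdha, the catalytic flavoprotein of complex II, had 49.9, 87.8 and 84.3 CPM in ncMono-like cells. Complex V had the higher ratio of the larger complexes in cMono-like cells and complexes III and IV in ncMono-like cells (1.28 and 1.29 at D14, against 1.17 for V and 1.09 for I). Mitochondria-encoded subunits had a D14 over naive ratio of 1.24 (1.22 to 1.26) in ncMono-like cells and glycolytic enzymes 1.29 (1.22 to 1.37). The class held 118, 193 and 608 cells with median totals of 7759, 7760.0 and 9190 UMIs, and the 6 B markers in it summed to 98.8, 46.0 and 16.8 CPM. The part of RNA from other classes, such as pro-B leukemia-like cells, in the result was not tested. Within a library, cMono-like cells kept a higher share than ncMono-like cells, 1.81-fold in naive (1.76 to 1.86) and 1.87-fold at D14 (1.85 to 1.90). In naive, 50 of 68 tested members were past 1.5-fold higher in cMono-like cells, against 17.7% of all genes, and at D14 61 of 72, against 18.6%.

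**Figure D2:**
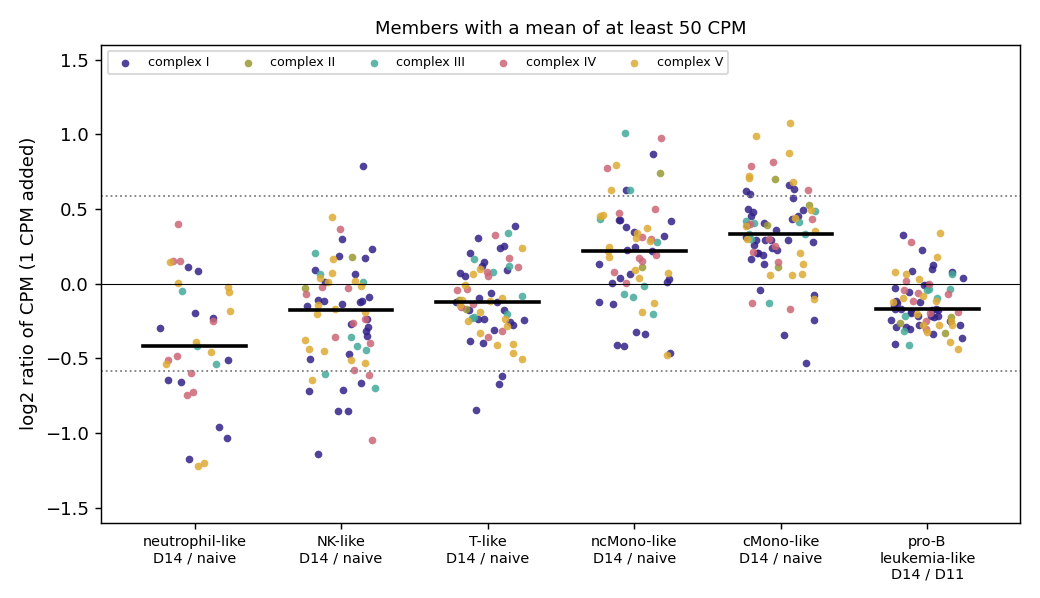
Each point is 1 member with a mean of at least 50 CPM over both libraries, placed by its log2 ratio of CPM (1 CPM added) and coloured by complex. Black bars are medians, dotted lines mark 1.5-fold, and the ratio is D14 over naive except in pro-B leukemia-like cells (D14 over D11). The medians of the monocyte-like classes lie above 0 (0.33 in cMono-like cells) and those of the other classes below, and no point of the pro-B leukemia-like class passes 1.5-fold.

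In neutrophil-like cells the subunit share was lower in leukemic mice, with 0.469% in naive, 0.414% in D11 and 0.371% in D14. The D11 sum had 0.883 times the naive share (0.867 to 0.899) and the D14 sum 0.791 times (0.776 to 0.806). This ratio turned on the scaling. With TMM factors, which centre on the bulk of the genes, it was 1.05 at D11 and 0.950 at D14, since TMM moved all log2 ratios of this class by 0.25 and 0.26. At D14, 10 of 33 tested members were past 1.5-fold lower and 0 higher, against 26.3% of all genes lower and 11.3% higher, and with TMM factors 5 were lower and 1 higher. With a minimum of 1 UMI in each sum in place of 50 CPM, 12 of 77 were lower and 8 higher. With TMM factors or this minimum the share of all genes was not counted, so these counts have no background beside them. The median log2 ratio was -0.42 over the members tested and -0.27 over all genes tested. Above a ratio of 1 lay 13 of 34 members at D11 and 7 of 33 at D14, beside 26.2% and 31.2% of all genes, and with TMM factors 21 of 34 and 13 of 32. The mean number of subunit UMIs per cell was 17.8, 17.3 and 17.6.

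Cox8a, the highest member in these cells, had 383.4 CPM in naive, 326.8 in D11 and 231.6 in D14. Atp5e, the epsilon subunit of the ATP synthase, had 293.5, 165.1 and 125.1 CPM (D14 over naive 0.426, 0.390 to 0.466), and Ndufa7 of complex I had 121.1, 85.9 and 53.0 CPM (0.438, 0.381 to 0.503). Each of these was lowest at D14. Cox7c of complex IV was at the other end over the whole class, with 62.2, 62.5 and 82.2 CPM (1.32, 1.14 to 1.53). At D14 it had 111.3 CPM in the immature neutrophils described below and less in the other cells. Hemoglobin genes took 1.31%, 6.62% and 5.06% of the UMIs of this class and pro-B leukemia markers summed to 12.2, 17.9 and 79.7 CPM, and the part of these in the result was not tested. With hemoglobin, ribosomal protein and mitochondrial genes left out of the total, the D14 ratio was 0.826.

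Immature neutrophils are known to be released into blood under demand. Cells with at least 3 markers of immature neutrophils numbered 17 in naive, 181 in D11 and 464 in D14, and they had a higher share than the other neutrophil-like cells of their library, 0.484% against 0.394% at D11 (ratio 1.23, 1.19 to 1.26) and 0.433% against 0.303% at D14 (1.43, 1.39 to 1.47). Median totals were 7147 against 3329 UMIs at D11 and 6668 against 3299 at D14, and the part of depth was not tested. Among the other neutrophil-like cells the D14 over naive ratio was 0.661 (0.645 to 0.678), and 17 of 29 tested members were past 1.5-fold lower and 0 higher, against 20.7% and 8.57% of all genes. At D14 the members with the largest ratio of immature over other cells were Ndufb7 (148.3 against 64.3 CPM, 2.31) and Cox7c (111.3 against 50.6 CPM, 2.20). The 50.6 CPM of Cox7c in the other cells lay below its level in the whole neutrophil-like class of naive. In the comparison of immature with other cells at D14, 14 of 29 members were past 1.5-fold higher, against 10.8% of all genes.

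Mitochondria-encoded subunits went the opposite way in neutrophil-like cells. They took 0.788% of UMIs in naive, 1.02% in D11 and 1.61% in D14, a D14 over naive ratio of 2.04 (2.02 to 2.07), and 12 of 12 tested genes were past 1.5-fold higher, against 11.3% of all genes. There were 1.68, 2.46 and 4.35 of their UMIs per nuclear-encoded subunit UMI. The mitochondrial core subunit of complex IV, mt-Co1, had 1443, 1823 and 3041 CPM, and mt-Cytb of complex III had 673, 867 and 1469 CPM. In the neutrophil-like cells that did not pass the gate for immature neutrophils, the ratio was 1.91 (1.88 to 1.93). Mitochondrial ribosomal proteins had 0.660 and cytosolic ribosomal proteins 0.753 at D14, glycolytic enzymes 1.37, and citrate cycle enzymes 0.814. Cells over 10% mitochondrial UMIs had been removed from all libraries, which bounds these shares.

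**Figure D3:**
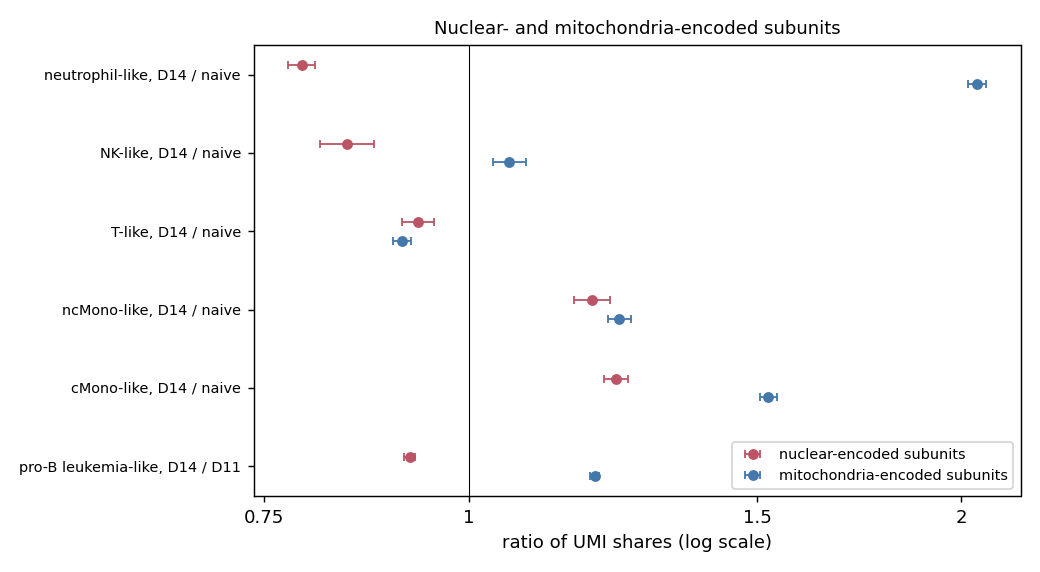
Points are ratios of UMI shares between libraries (log scale) for the 83 nuclear-encoded and the 13 mitochondria-encoded subunits, with exact 95% intervals for counting error. In neutrophil-like cells the ratios lie on opposite sides of 1 (0.791 and 2.04), in NK-like and pro-B leukemia-like cells as well, and in ncMono-like, cMono-like and T-like cells on the same side.

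Naive neutrophil-like cells had 0.702 times (0.688 to 0.716) the subunit share of naive B-like cells and 0.206 times (0.203 to 0.208) their share of mitochondria-encoded subunits. Of 43 tested members, 19 were past 1.5-fold lower and 4 higher, against 41.7% and 33.2% of all genes. The low genes were led by Atp5g2 with 17.9 against 171.5 CPM (0.105, 0.0814 to 0.133), Ndufs4 with 29.7 against 163.7 CPM (0.181) and Ndufa4 with 32.3 against 133.0 CPM (0.243). The 4 higher were Ndufb9 (134.1 against 61.0 CPM, 2.20), Cox8a (383.4 against 217.3 CPM, 1.76), Atp5l (301.0 against 189.5 CPM, 1.59) and Atp5md (96.3 against 63.4 CPM, 1.52). Genes of 1 enzyme thus lay far apart in these cells, as with Atp5l and Atp5g2 of the ATP synthase.

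In T-like and NK-like cells the share was lower at D14 than in naive. T-like cells had 0.947%, 0.931% and 0.883% (D14 over naive 0.932, 0.911 to 0.953), and NK-like cells 1.04%, 0.926% and 0.872% (0.842, 0.811 to 0.875). B-like cells had 0.668% in naive and 0.617% at D11 (0.924, 0.901 to 0.948). In T-like cells 3 of 65 members were past 1.5-fold lower at D14 and 0 higher, against 5.23% and 9.87% of all genes. In NK-like cells 11 of 66 were lower and 1 higher, against 8.45% and 9.16%. Members above a ratio of 1 at D14 numbered 22 of 65 in T-like and 19 of 66 in NK-like cells, beside 55.6% and 51.1% of all genes. There were 59 NK-like cells at D14, so that single members rested on few UMIs.

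Cox7a2l in NK-like cells had 221.4 CPM in naive, 227.0 in D11 and 106.9 in D14 (D14 over naive 0.483, 0.338 to 0.673). The 1 member past 1.5-fold higher was Ndufs1, a core subunit of complex I, with 40.8, 57.0 and 71.2 CPM (1.75, 1.06 to 2.79). In T-like cells Ndufa3 had 142.2, 68.7 and 78.8 CPM (0.554, 0.431 to 0.701), and Cox5a was on the other side with 129.2, 168.7 and 161.9 CPM (1.25, 1.05 to 1.48). Cytosolic ribosomal proteins were lower in both classes at D14, with ratios of 0.707 and 0.693. Hemoglobin genes took 0.366%, 6.19% and 2.19% of UMIs in T-like cells and 0.746%, 3.63% and 2.62% in NK-like cells.

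At D11 the members past 1.5-fold lower numbered 4 of 34 in neutrophil-like (against 9.15% of all genes), 3 of 66 in T-like (4.13%), 6 of 65 in NK-like (2.82%) and 5 of 56 in B-like cells (2.68%). In neutrophil-like and T-like cells this was near the share of all genes, and in NK-like and B-like cells above it. In these 4 classes 0 were past 1.5-fold higher (against 4.25%, 5.7%, 1.88% and 2.71%). With a minimum of 1 UMI in each sum, 3, 2, 1 and 0 were past 1.5-fold higher in the same order, and the share of all genes was not counted there. Above a ratio of 1 lay 37 of 66 members in T-like (46.1% of all genes), 18 of 65 in NK-like (44.5%) and 20 of 56 in B-like cells (43.0%). All of these comparisons use the naive and D11 libraries, so their values are given side by side and are not independent. Ndufa3 had a D11 over naive ratio of 0.482 in neutrophil-like, 0.615 in cMono-like, 0.617 in ncMono-like, 0.442 in B-like, 0.483 in T-like and 0.562 in NK-like cells. For Ndufb1-ps the ratios were 0.465, 0.554, 0.781, 0.541, 0.589 and 0.439 in the same order, and for Atp5k 0.626, 0.649, 0.597, 0.550, 0.631 and 0.448. Atp5k passed the minimum of 50 CPM in only 4 of these 6 classes. Cox5a had ratios above 1, at 1.08, 1.36, 1.69, 1.11, 1.31 and 1.30. Atp5b and Ndufb8 were also above 1 in all 6 classes, and Ndufa1, Ndufa2, Ndufa7, Atp5e and Atp5md were also below 1 in all 6. The share of all genes on the same side of 1 in all 6 classes was not counted.

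Transcripts of the members are short, with a median of 763 nt (spliced length of the principal transcript, GENCODE vM21), and 10 are under 500 nt. Of the genes named above, Atp5k has 371 nt, Ndufa3 515 nt, Cox5a 645 nt and Ndufb1-ps 861 nt. Members under 500 nt had a median log2 ratio of D11 over naive of -0.67 in neutrophil-like (4 members tested), -0.23 in cMono-like (7), -0.07 in ncMono-like (7), -0.47 in B-like (6), -0.43 in T-like (7) and -0.57 in NK-like cells (7). Other genes under 500 nt had medians of -0.67, -0.45, -0.18, -0.32, -0.42 and -0.46, from 28 to 36 genes per class. In the bin under 500 nt, the medians of members and of other genes were both below 0 in each class. Spearman's rho between length and log2 ratio across the members tested lay between 0.30 and 0.53 at D11 (34 to 71 members, which share the libraries). For D14 over naive it lay between 0.17 (T-like) and 0.40 (NK-like). For D14 over D11 it was -0.43 in pro-B leukemia-like (75 members), -0.41 in ncMono-like, -0.31 in T-like, -0.21 in cMono-like, 0.02 in neutrophil-like and 0.04 in NK-like cells. Across all other genes tested, rho did not follow the members at D11 (between -0.30 and 0.033) or in the leukemia cells (0.31). For D14 over naive it lay between -0.13 and 0.19 across those genes. With members of at least 500 nt only, the D11 ratio of T-like cells was 1.02 in place of 0.983. Fragment length and RNA quality of the libraries were not tested.

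**Figure D4:**
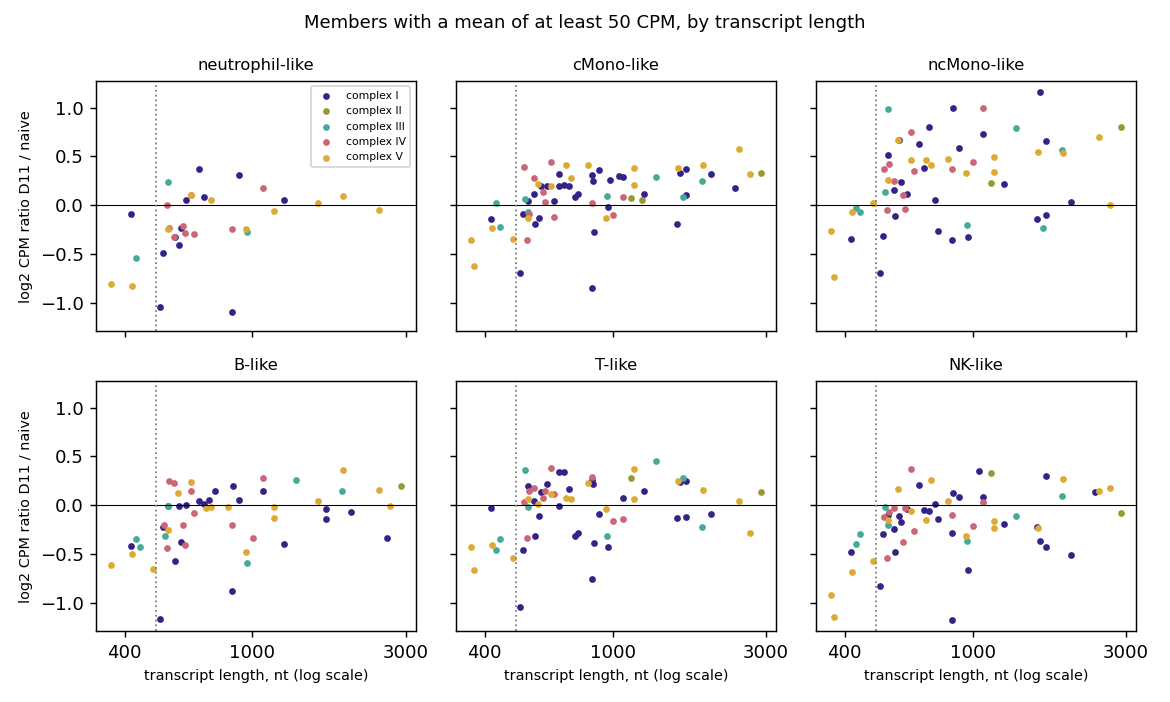
Each point is 1 member with a mean of at least 50 CPM over naive and D11, placed by transcript length (log scale, dotted line at 500 nt) and by log2 ratio of D11 over naive CPM (1 CPM added), in 6 classes. Members under 500 nt lie mostly below 0, with medians from -0.67 to -0.07, and 2 further low points in each class are Ndufa3 and Ndufb1-ps.

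Some subunits are encoded by more than 1 gene, with forms known from heart, muscle or testis. Reads of such close copies and of their pseudogenes can be split or lost in counting, so small shares of a copy are uncertain. Cox7a1, Cox7a2 and Cox7a2l were grouped by symbol, and whether their products stand in for each other was not tested. Cox7a2l (chromosome 17, 83501918 to 83517330) gave 69.5% of the UMIs of these genes in naive T-like cells (68.2% to 70.7%), 62.7% in B-like, 62.3% in cMono-like, 56.5% in ncMono-like, 52.9% in NK-like and 40.3% in neutrophil-like cells. In pro-B leukemia-like cells it gave 19.5% at D11 (18.1% to 21.1%) and 21.7% at D14 (21.1% to 22.3%), and Cox7a2 (chromosome 9, 79755361 to 79759878) gave 80.3% and 78.0%. Cox7a2 had 679 CPM in the leukemia cells of D11 against 108 CPM in B-like cells, and Cox7a2l 165.5 against 232.0 CPM. The heart and muscle form Cox7a1 had 79 UMIs at D14, 58 of them in pro-B leukemia-like cells (2.43 CPM).

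For subunit 6b, Cox6b1 gave nearly all UMIs in leukocytes, while Cox6b2 (chromosome 7, 4751792 to 4753094), known as the testis form, had 631 of the 886 UMIs of the pair in erythroid-like cells of D11, 71.2% (68.1% to 74.2%). The level of Cox6b2 in erythroid-like cells was 8.34 CPM in naive (3 UMIs), 58.9 CPM in D11 and 8.51 CPM in D14 (16 UMIs). Among other classes with at least 50 cells it was highest in cMono-like cells, with 11.6, 17.6 and 8.16 CPM, and in B-like cells it was 1.23 CPM in naive and 0.654 CPM in D11. Cox6a2 (chromosome 7, 128205435 to 128206387), the heart and muscle form of subunit 6a, had 61 UMIs in D11, of which 59 came from 2 cells with markers of plasmacytoid dendritic cells (2166 CPM), where Cox6a1 had 6 UMIs. For the c subunit of the ATP synthase, Atp5g2 gave 47.4% to 59.4% of UMIs in the naive leukocyte classes, and 49.7% and 47.9% in pro-B leukemia-like cells.

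**Figure D5:**
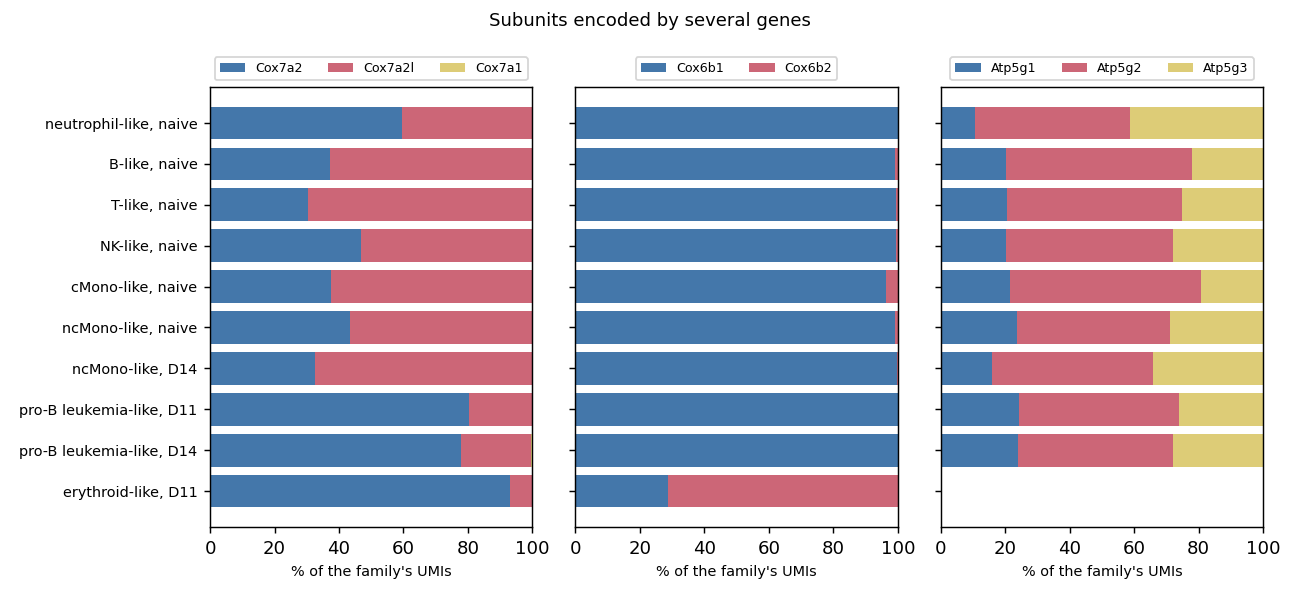
Bars give the share of each gene in the UMIs of its family (Cox7a, Cox6b, Atp5g) in 10 combinations of class and library. Atp5g is not drawn for erythroid-like cells, which had 15 UMIs of the family. Cox7a2l gives 40.3% to 69.5% in naive leukocytes and 19.5% to 21.7% in pro-B leukemia-like cells, and Cox6b2 gives 71.2% in erythroid-like cells of D11.

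Erythroid-like cells, 945 in D11 and 289 in D14, had 15322 and 1660 subunit UMIs. Complex IV gave 35.5% and 28.0% of these and complex I 18.1% and 21.6%. The share of all UMIs was 0.617 times (0.586 to 0.649) as high at D14 as at D11, whereas that of mitochondria-encoded subunits was 1.24 times (1.21 to 1.26) as high. Only 6 members passed the minimum of 50 CPM, and 4 were past 1.5-fold lower, against 18.1% of all 188 genes tested. Members under that minimum went both ways, such as Cox5a with 1.21 CPM at D11 and 7.44 at D14, and Cox6b2 with 58.9 and 8.51 CPM. Median totals were 11330 UMIs at D11 and 6526 at D14, and the part of depth was not tested. The highest member was Atp5l, with 131.5 CPM at D11 and 102.1 at D14. Atp5b had 109.6 and 55.8 CPM and Cox6c 102.6 and 49.98 CPM.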

How the data were processed

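Peripheral blood leukocytes of 3 conditions were measured, 1 10x Genomics 3′ v3 library each. The authors deposited the filtered matrices of Cell Ranger, whose values are raw counts of UMIs per gene and cell, with no normalization. The processing notes name Cell Ranger 7.1.0 and mm10, while the header of the matrices names cellranger 5.0.1. The deposited counts hold no cell names.

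Cells that had 200 or more genes and no more than 10% of UMIs from mitochondrial genes were kept. A cell was given a class when at least 3 distinct markers of that class had a UMI and these were at least 2 times as many as those of any other class. The marker Ahsp is not used here. Subgates for immature neutrophils and cycling cells needed at least 3 markers. Doublets were not removed from the reported values. UMIs were summed per class and library and given as a share or as CPM (Python 3.11.15, numpy, scipy 1.17.1). A member counted as past 1.5-fold was compared only where the mean of both sums was at least 50 CPM, and sums of under 50 cells were not compared, so the leukemia cells were set against B-like cells at D11 and not at D14. Sums held 364944 (NK-like, D14) to 23854521 UMIs, so that precision differs between classes. Named members are the 5 highest and 5 lowest by log2 ratio (1 CPM added) in each comparison, the highest of each complex and all members of multigene families. Other genes named beside these were chosen after their values were seen. Members, marker lists and comparison lists were chosen with earlier results of these data known. The interval and call rules were tried on simulated counts that held counting error only. Spread between cells, mice or libraries was not part of that trial. Alternatives used other cell filters and gates, other totals, TMM factors (edgeR 4.0.16), per-cell means and removal of the cells with the highest Scrublet scores (scanpy 1.11.5).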

Additional observations from a re-analysis of the deposited data

Results flagged for a closer look

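The D14 over naive ratio of the subunits' UMI share lay on opposite sides of 1 in different cell classes of the same libraries. It was 1.23 in cMono-like and 1.19 in ncMono-like cells, and 0.932 in T-like, 0.842 in NK-like and 0.791 in neutrophil-like cells. The difference between classes was not tested, since each condition has 1 library. All of these ratios share the naive and D14 libraries.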

How the results depend on the processing

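No paired analysis was possible because each condition has 1 library. The direction of the share ratio was the same in 12 of 12 comparisons under every alternative that applied to all 12, except with TMM factors and with members of at least 500 nt, where it was the same in 11 of 12. A total without hemoglobin genes alone was not among these alternatives. On that total T-like cells had 0.951% in naive and 0.993% in D11, so their direction at D11 turned. With TMM factors the D11 over naive ratio of neutrophil-like cells turned to 1.05, and the other values were 0.950 at D14, 1.08 for cMono-like and 1.31 for ncMono-like cells at D11, 1.28 for ncMono-like cells at D14, 0.968 and 0.868 for T-like cells at D11 and D14, and 0.921 for NK-like cells at D11. With members of at least 500 nt, an alternative added after the data were seen, that of T-like cells at D11 turned to 1.02, and the other values at D11 were 0.923 for neutrophil-like, 1.07 for cMono-like, 1.27 for ncMono-like, 0.952 for B-like and 0.928 for NK-like cells, with 0.825 for neutrophil-like and 1.22 for ncMono-like cells at D14 and 0.905 for the leukemia cells. Without the neutrophil-like cells that passed the gate for immature neutrophils, also added, the ratio was 0.860 at D11 and 0.661 at D14. Leaving out Ndufb1-ps, also added, moved no ratio beyond its interval. Without ribosomal protein, mitochondrial and hemoglobin genes in the total it was 0.933 and 0.826 for neutrophil-like cells at D11 and D14, 1.26 for cMono-like cells at D14, 1.27 for ncMono-like and 0.954 for B-like cells at D11, and 0.889 for T-like cells at D14. As a mean of per-cell shares it was 0.704 for neutrophil-like cells at D14, 1.02 and 1.17 for cMono-like and 1.27 and 1.26 for ncMono-like cells at D11 and D14, 0.933 for T-like and 0.836 for NK-like cells at D11, and 0.963 for the leukemia cells. With all barcodes as deposited it was 0.758 for neutrophil-like and 1.20 for cMono-like cells at D14, 0.960 for T-like cells at D11 and 0.902 for the leukemia cells. With a stricter cell filter (500 or more genes, no more than 5% of UMIs mitochondrial) it was 1.27 for cMono-like and 0.904 for T-like cells at D14. A gate of 2 markers gave 0.766 for neutrophil-like cells at D14 and 0.898 for B-like cells at D11, a gate of 4 gave 0.807 for neutrophil-like cells at D14, and removing the highest Scrublet scores gave 0.769 for these and 0.945 for T-like cells at D11. The cause of these shifts was not tested.

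Members past 1.5-fold in either direction, where at least 1 UMI in each sum was the minimum, numbered 9 (3 higher, 6 lower) and 20 (8 higher, 12 lower) in neutrophil-like cells at D11 and D14, 6 in cMono-like (3 higher, 3 lower), 8 in B-like (all lower) and 5 in T-like cells (2 higher, 3 lower) at D11, 15 in ncMono-like cells at D14 (14 higher, 1 lower) and 2 in the leukemia cells (both higher), so that several counts of 0 higher hold only with the minimum of 50 CPM. There were 14 in ncMono-like cells at D14 with a minimum of 20 CPM, and 6 in neutrophil-like cells at D14 with TMM factors. The share of all genes past 1.5-fold was not counted at these other settings, so the counts describe the choice of minimum or scaling only. Depth limits single members most in erythroid-like and NK-like cells of D14, which had 1660 and 3182 subunit UMIs. Intervals cover counting error only, and the spread between mice could not be measured.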
